A study of Mus musculus with 6 samples.

Results

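The Klrb1 genes and their Clec2 neighbours lie side by side in the natural killer (NK) gene complex of mouse chromosome 6. They were examined here for binding of Eomes, a T-box transcription factor of NK cells. The members were Klrb1a, Klrb1b, Klrb1c, Klrb1f, Clec2d and Clec2i, and every peak of 3 deposited lists that carried one of these 6 symbols as its nearest gene was taken. Overlapping peaks of the lists were merged into regions, which gave 15 regions for the members among 84399 in all.

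Klrb1 genes encode NKR-P1 receptors, C-type lectin-like proteins of the NK cell surface, and several of them bind Clr proteins, which the neighbouring Clec2 genes encode. Klrb1c encodes NK1.1, the activating receptor by which NK cells of C57BL/6 mice are usually identified. Klrb1b encodes an inhibitory receptor whose ligand is Clr-b, the product of Clec2d, and Klrb1f encodes a receptor for Clr-g, the product of Clec2i. Receptor and ligand genes are thus inherited together as one block.

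The data came from 3 separate experiments on wild-type C57BL/6 mice aged 8 to 12 weeks. In each, NK cells purified from pooled spleens were kept 4 days in culture with IL-15 at 100 ng/mL, a cytokine on which they live and divide, before chromatin was immunoprecipitated with an anti-Eomes antibody. The design comprised 3 immunoprecipitated (IP) and 3 input libraries, all of one genotype and treatment. No sample used here lacked Eomes or had a control antibody. Peak lists hold no expression values, so the cell type could not be checked against its markers, and the sources used here do not state the sequencing depth.

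Each peak had a pileup, read as the number of IP fragments over its summit, and a fold enrichment over local background, both from the authors' peak caller. The lists held 37456, 33841 and 46329 peaks in experiments 1, 2 and 3, with median pileups of 12, 11 and 14. Background was recovered as (pileup + 1) / fold - 1, and its most frequent value in a list, called the floor, was 1.82, 1.32 and 2.33 fragments. Pileup divided by the floor served as a rough correction for depth. To set scores of different lists side by side, each peak was given the percentile of its -log10 q-value within its own list.

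Eomes peaks were found at 5 of the 6 members, and they were concentrated at Klrb1c. Of the 15 regions, 8 had a peak in all 3 experiments, 2 in experiments 1 and 3, and 5 in a single experiment. A region with a peak in at least 2 experiments was called reproducible, which held for 10 of 15 (66.7%), against 23.8% of all regions. As 9 of the 15 belonged to Klrb1c, they cannot count as independent, and no interval is given for the share. Regions in all 3 experiments made up 12.2% of all regions. Without Klrb1c, 4 of the 6 remaining regions were reproducible. The 5 members with a reproducible region, which were 3 without experiment 1 or without experiment 3, compare with 43.6% of 21887 protein-coding genes, and the 3 with a region in all experiments with 28.8%. The members' 10 reproducible regions had mean percentiles between 74.8 and 98.2, with a median of 88.3, where the median over all reproducible regions was 64.8. The sets differ in make-up. Of the 10, 8 were in all 3 lists and 6 belonged to Klrb1c, whereas 10328 of all 20126 reproducible regions were in all 3 lists. Each mean covers only the lists with a peak. The part of this make-up in the gap was not tested.

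**Figure D1:**
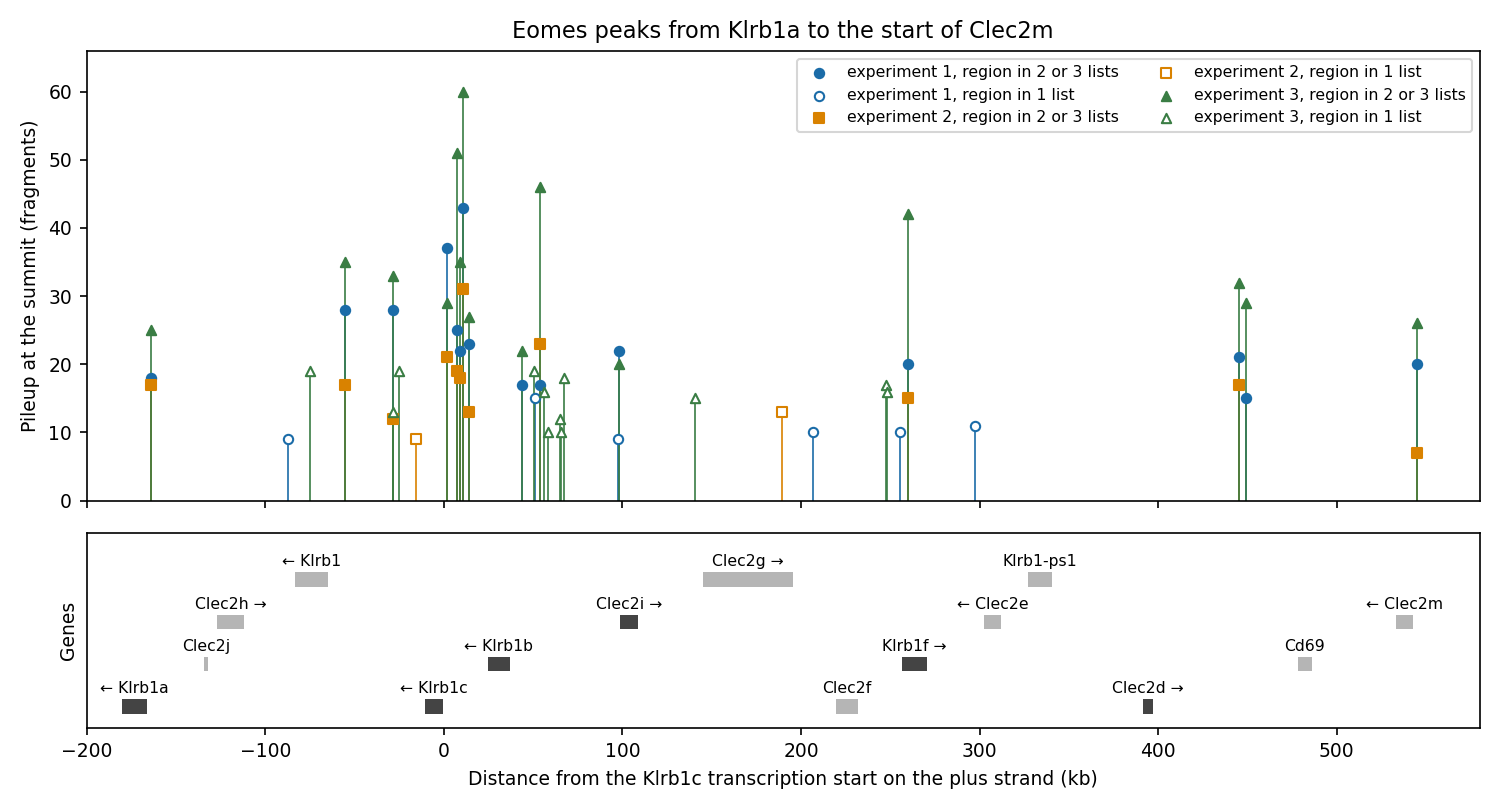
Pileup (fragments) of every peak from Klrb1a to just beyond the start of Clec2m against distance from the deposited Klrb1c start (kb, plus strand), with filled marks for regions in 2 or 3 lists and open marks for regions in 1. RefSeq genes are drawn below with their direction where known, members in dark grey. The tallest marks (60, 43 and 31 fragments in experiments 3, 1 and 2) stand beside the Klrb1c start, and none stands within 47679 bp of Clec2d.

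Most of the members' reproducible regions lay away from promoters, and most of these were assigned to Klrb1c. The deposited annotation, which counts as promoter up to 3000 bp from a transcription start, placed 3 of the 10 reproducible regions at promoters, 1 in an intron and 6 in intergenic sequence. Across all reproducible regions the promoter share was 59.1%. Klrb1c accounted for 6 of the 10, with 1 of its 6 in the promoter class. The single reproducible regions of Klrb1a and Clec2i were in that class, and those of Klrb1b and Klrb1f were not. The low share thus rests largely on Klrb1c, and the 4 reproducible regions of the other members are too few to compare with 59.1%. With a limit of 1000 bp, 1 of the 10 remained, that of Clec2i.

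Klrb1c (chromosome 6, 128778485 to 128788641, minus strand, GRCm38.p6) had 9 regions, 6 of them in all 3 experiments. Across the genome, 51 of 21887 protein-coding genes (0.233%) had as many or more regions in all 3 lists, or 0.81% of the 6296 genes with at least 1. Regions were assigned by the nearest start, and the part of the spacing of genes in this count was not tested. Of the 6 regions, 5 lay upstream within 12576 bp of each other, with gaps of 5902, 1809, 1251 and 3614 bp between neighbouring summits. Among all 10328 regions in all 3 lists, 65 (0.629%) opened a stretch of that length holding at least 5, and the median gap between neighbours was 52288 bp. The length and the count of 5 were taken from Klrb1c itself after its regions were seen. The share is thus a description and no test of how rare the group is.

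The leading Klrb1c region (chromosome 6, 128799449 to 128799899) lay in intergenic sequence with its summit 10467 bp upstream of the deposited transcript start. Its pileup was 43, 31 and 60 fragments in experiments 1, 2 and 3. Divided by the floor, these became 23.7, 23.4 and 25.8 (24.3 ± 1.27, SD, n = 3), so the 3 experiments nearly met on that scale. On the fold scale they were further apart, at 14.6, 9.46 and 11.4, with local background 1.11, 1.80 and 1.88 times the floor. In each list the peak stood high, at percentiles 99.1, 96.9 and 98.5, and the 3 summits fell within 34 bp.

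The Klrb1c region nearest the gene (128790612 to 128790842) was classed as promoter, with its summit 1505 bp upstream of the deposited start and 2079 bp upstream of the RefSeq start. Pileups there were 37, 21 and 29 fragments and folds 12.8, 7.37 and 7.83, with experiment 1 above the others. Only 6 bp separated the summits of the 3 experiments.

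Between these sites lay a wider region (128796152 to 128796888) and a narrow one (128798303 to 128798553). The wide region held a pair of summits in every experiment. At the summit nearer the gene (128796265 to 128796351), pileups were 17, 15 and 51 fragments and folds 4.56, 5.36 and 13.9, so that experiment 3 stood far above the others. At the farther summit (128796622 to 128796654), folds were nearly level at 6.58, 6.34 and 5.76 (6.23 ± 0.42, SD, n = 3), with pileups of 25, 19 and 35. The narrow region, whose summit lay 9216 bp upstream, had pileups of 22, 18 and 35 and a fold of 8.18 ± 1.14 (SD, n = 3).

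The outermost upstream region (128803108 to 128803433), 14081 bp from the start, had the lowest mean fold (4.53) and mean percentile (74.8) of the members' reproducible regions. By mean pileup over the floor (11.4 ± 1.43, SD, n = 3) it stood above those of Klrb1b (9.40) and Clec2i (10.3), which had 2 lists each. The Klrb1a region (11.2 ± 1.52, SD, n = 3) did not differ from it beyond the spread, and was higher in experiment 2 (12.9 against 9.83). Folds at the outermost region, 4.42, 4.69 and 4.48, differed little, while its pileups were 23, 13 and 27. Local background there was 2.44, 1.5 and 2.25 times the floor in experiments 1, 2 and 3. The part of background in its low fold was not tested.

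**Figure D2:**
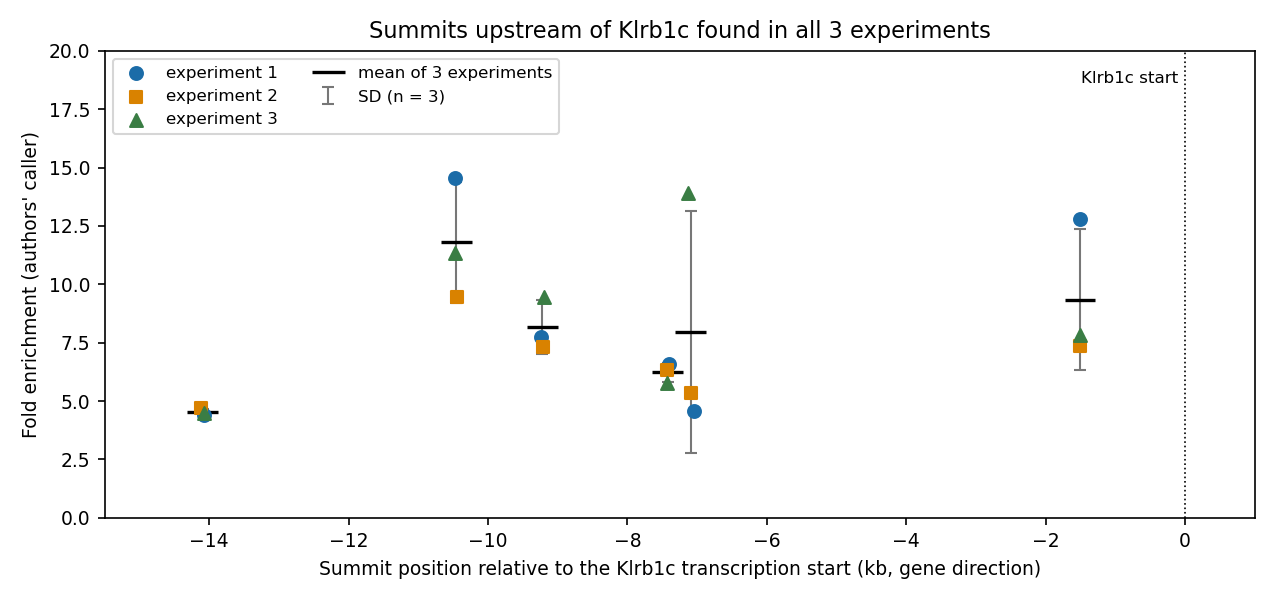
Fold enrichment at each summit upstream of Klrb1c found in all 3 experiments, against distance from the deposited start (kb, in the direction of the gene), with the mean (black bar) and SD (grey, n = 3). The leading summit at -10467 bp has a mean of 11.8, and the widest spread is at the nearer summit of the wide region, where experiment 3 reaches 13.9.

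On the other side of Klrb1c, a region 27533 bp downstream of the start (128760776 to 128761138) was also found in all 3 experiments. It lies beyond the end of Klrb1c, in the intergenic stretch towards Klrb1. Its pileups were 28, 12 and 33 fragments, and its folds were 4.52, 5.60 and 10.2. The order differed between the scales. Local background in experiment 1 was 2.98 times the floor there, and in experiments 2 and 3 it was at the floor. Background was recovered from pileup and fold, so it is no separate measure. Its part in the fold of experiment 1 was not tested. The other 3 Klrb1c regions each came from 1 list and lay on this side too, with pileups of 13 and 19 fragments in experiment 3 and 9 in experiment 2.

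Klrb1a (128609227 to 128622934, minus strand), which encodes the activating receptor NKR-P1A, had a single region (128625345 to 128625612) in the promoter class, 2528 bp upstream of its start. Pileups were 18, 17 and 25 fragments, and folds were 6.40, 6.95 and 4.84 (6.06 ± 1.10, SD, n = 3). Experiment 3 had the highest pileup and the lowest fold, with local background 1.88 times the floor against 1.08 and 1.20 in experiments 1 and 2. The 3 summits lay within 1 bp of each other, as in 0.165% of all regions found in 3 lists. This was the smallest summit range of the members' 8 such regions, which ran up to 303 bp. Their median summit range was 33.5 bp, and over all 10328 it was 60 bp.

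The promoters of Klrb1a and Klrb1c are close copies, and neither window holds a peak. RefSeq promoter windows (250 bp before to 50 bp after the start, GRCm38.p6) were at hand for all 6 members and were aligned in pairs with free ends. Klrb1a and Klrb1c matched at 89.1% of 265 aligned positions, and the pair with the next most identical positions, Klrb1b and Klrb1f, at 62.2% of 299. The stretch upstream of both starts is printed to show how alike the copies are, 5' to 3' on the minus strand, with bases that differ or have no partner in the other gene in capitals. The Klrb1a stretch is chr6:128622975-128623184 and the Klrb1c stretch chr6:128788642-128788856.
Klrb1a: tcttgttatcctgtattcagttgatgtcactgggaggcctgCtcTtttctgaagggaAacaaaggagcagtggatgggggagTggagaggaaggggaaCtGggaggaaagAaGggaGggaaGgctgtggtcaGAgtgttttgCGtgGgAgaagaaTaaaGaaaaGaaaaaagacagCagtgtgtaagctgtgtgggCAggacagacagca
Klrb1c: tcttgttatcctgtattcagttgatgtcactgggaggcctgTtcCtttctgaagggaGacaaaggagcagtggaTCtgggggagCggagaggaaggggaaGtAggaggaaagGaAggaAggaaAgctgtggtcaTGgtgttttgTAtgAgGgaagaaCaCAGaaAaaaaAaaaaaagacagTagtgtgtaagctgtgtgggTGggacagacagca
Over these 215 aligned positions, 87.4% were identical. Despite this likeness, Klrb1a had 1 region in all 3 experiments and Klrb1c had 6. Whether reads could be placed uniquely in either gene was not tested.

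Klrb1f (129045837 to 129059724, plus strand) was the only member with a reproducible region inside the gene. The region (129049130 to 129049474) lay in the first intron, 3391 bp downstream of the deposited start. Pileups were 20, 15 and 42 fragments, and folds were 7.08, 6.15 and 11.3. Experiment 3 stood above the other experiments on both scales, also after division by the floor (11.0, 11.3 and 18.0). Local background was 1.08, 1.21 and 1.20 times the floor. A second Klrb1f region, in its promoter class, came from experiment 1 alone with 10 fragments and a fold of 3.46.

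Klrb1b (128813706 to 128826315, minus strand), the gene of the inhibitory receptor, had 1 region, in intergenic sequence 6848 bp upstream (128833043 to 128833298). Experiments 1 and 3 gave pileups of 17 and 22 fragments and folds of 5.63 and 5.11, and experiment 2 gave no peak. After division by the floor the pileups were 9.36 and 9.44. The smallest pileup in the list of experiment 2 was 7 fragments, and weaker signal is not listed there. Why experiment 2 gave no peak was not tested.

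Clec2i (128887587 to 128898168, plus strand), which encodes the ligand Clr-g, likewise had its region in experiments 1 and 3 only. This region (128887127 to 128887386) was the one closest to a start, with its summit 362 bp upstream. The pileups of 22 and 20 fragments were alike, whereas the folds were 7.24 and 4.79 and the percentiles 93.0 and 74.8. A weak peak of 9 fragments in experiment 1 lay 825 bp upstream. The pattern of experiments 1 and 3 without 2 made up 43.5% of all regions found in 2 lists, so it is not peculiar to these genes.

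Among the members' promoter windows, only that of Clec2i was touched by a peak, which reached 30 bases into it in experiment 1 and 50 in experiment 3. The upstream part of the window is shown because it is where a peak and the given sequence meet (chr6:128887337-128887586, plus strand, RefSeq, GRCm38.p6), with the 50 bases under the peak of experiment 3 in capitals.
Clec2i: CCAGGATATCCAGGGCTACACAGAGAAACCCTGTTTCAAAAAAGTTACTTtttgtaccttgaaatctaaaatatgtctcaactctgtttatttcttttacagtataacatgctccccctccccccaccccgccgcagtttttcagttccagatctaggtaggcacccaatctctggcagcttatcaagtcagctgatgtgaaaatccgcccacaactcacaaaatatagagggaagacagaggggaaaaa
The summits lay outside this window, further upstream.

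A core T-box motif, written GGTGTGA and searched on both strands, was in none of the 6 members' windows and in 3.98% of 32851 RefSeq promoter windows of the same length. The stricter AGGTGTGA, which contains it, was in none of the members' windows and in 1.28% of all. With GGTGTNA, which also takes in GGTGTGA, only Klrb1b had a match, against 10.2% of all windows. The RUNX motif TGTGGTT was in none (5.27% of all). The ETS motif GGAAGT was in 4 of 6, namely Klrb1a, Klrb1b, Klrb1c and Klrb1f (23.8% of all). These matches describe the windows only, and the sequences of the distal regions were not used here. Members were counted by gene and the percentages by window, and a gene may have several windows, as Clec2i does.

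Clec2d (129180615 to 129186535, plus strand), which encodes Clr-b, the ligand of the inhibitory receptor, had no assigned peak in any experiment. The nearest peak lay 47704, 47679 and 47686 bp away in experiments 1, 2 and 3, beyond the end of the gene, and was assigned to 2310001H17Rik. On the other side, the last reproducible region was the one in Klrb1f, 131 kb before the Clec2d start. Absence of a peak does not show absence of Eomes, since weak signal and reads that fit several places are not listed.

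**Figure D3:**
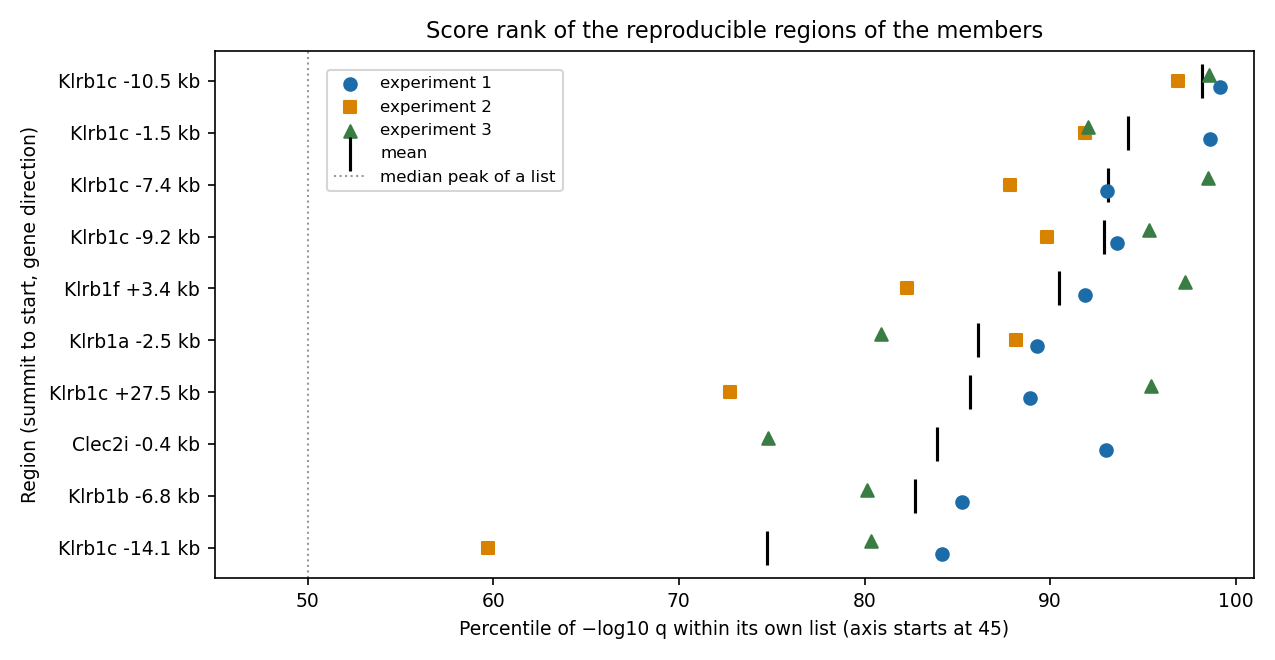
Percentile of the -log10 q-value within its own list for the 10 reproducible regions of the members, labelled by the distance of the summit from the deposited start. Marks are experiments, black bars are means, and the dotted line is the median peak. The leading Klrb1c region is the highest on average at 98.2, and the outermost Klrb1c region the lowest at 74.8.

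Ordered by the percentile of the leading region, the members ran Klrb1c (98.2 ± 1.15), Klrb1f (90.5 ± 7.59), Klrb1a (86.1 ± 4.57, SD, n = 3 each), Clec2i (83.9 ± 12.9) and Klrb1b (82.7 ± 3.64, SD, n = 2 each). The leading region was chosen, and the members ordered, by this same percentile, and Klrb1c had 9 regions to choose from where Klrb1f had 2, so the differences are given as a description with no test. Klrb1c stood above Klrb1f by 7.26, 14.6 and 1.26 percentile points in experiments 1, 2 and 3 (7.72 ± 6.70, SD, n = 3). Klrb1f and Klrb1a did not differ beyond their spread, with differences of 2.62, -5.91 and 16.4 points (4.37 ± 11.3, SD, n = 3). Without experiment 3 the sign turned, to -1.65 points. Clec2i stood above Klrb1a and Klrb1b in experiment 1 and below both in experiment 3, so these 3 could not be ordered.

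The experiments differed in the height of peaks in the same way at most of these sites. Pileup was lowest in experiment 2 at 8 of the 8 member regions found in all lists, and highest in experiment 3 at 7 of them, the Klrb1c promoter region being the exception. Median pileups and floors of the whole lists had the same order. Of the 8 regions, 6 belonged to Klrb1c. The same counts over all 10328 regions in all 3 lists are not given here, so the order cannot be called particular to the members. On the fold scale the order was less uniform, with experiment 3 highest at 4 of the 8 regions and experiments 1 and 2 at 2 each. The lowest fold was in experiment 2 at 5 of the 8, in experiment 1 at 2 and in experiment 3 at 1.

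From the downstream end of Klrb1a to the downstream end of Clec2d, 577 kb of chromosome 6, the lists held 32 regions. Of these, 12 were reproducible, 10 of them assigned to members. The other 2 were found in all 3 experiments. One belonged to Klrb1, a further receptor gene of the family, and lay in intergenic sequence (128733913 to 128734222) with pileups of 28, 17 and 35 fragments and a fold of 8.21 ± 1.40 (SD, n = 3). Its summit was 11015 bp upstream of the deposited Klrb1 start and 9731 bp upstream of the RefSeq start. The other (128842757 to 128843288), between Klrb1b and Clec2i, was assigned to the promoter of Gm26656, with pileups of 17, 23 and 46 and folds of 4.56, 6.35 and 10.3. The longest stretch with no reproducible region ran 162 kb from the Clec2i region to the one in Klrb1f, across Clec2g and Clec2f. Peak numbers in the deposited names ran without a gap across the whole span in every list.

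Of the 10 further family genes listed, 9 were in the gene table and 3 of these had a region in all experiments. Among all protein-coding genes the share was 28.8%, but the 9 included the pseudogenes Clec2j and Klrb1-ps1, so the sets are unlike. Beside Klrb1, the family genes with such a region were Clec2l, which lies elsewhere on chromosome 6, and Clec2m, deposited as 4922502D21Rik. Clec2l had 1 such region in an intron (38669597 to 38670090), with folds of 8.17, 3.02 and 8.75. Clec2m had 1 (129333728 to 129334124), with pileups of 20, 7 and 26 fragments, the value of experiment 2 being the smallest its list holds. Clec2e had a peak in 1 experiment, and no peak was assigned to Clec2f, Clec2g, Clec2h, Clec2j or Klrb1-ps1.

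The list of further genes in or near the NK gene complex, mostly of lectin-like receptors but also Gabarapl1 and Tmem52b, had 32 entries in the gene table. Reproducible regions were assigned to 4 of them, and 3 had one in all experiments, compared with 43.6% and 28.8% of protein-coding genes. These were Klrg1, an inhibitory receptor gene with a fold of 13.6 ± 4.80, Klre1 with 7.52 ± 2.11 and Klri2 with 5.08 ± 0.70 (SD, n = 3 each). Klre1 and Klri2 encode partner chains of lectin-like receptors. Each had a single region in all 3 lists, where Klrb1c had 6. Many entries were Klra genes, most of them without a region. Whether reads could be placed uniquely in these genes was not tested, and a missing peak does not show absence of Eomes.

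A further list held genes of adaptors, kinases and other signalling proteins of NK cell receptors, including adaptors of receptors outside the NKR-P1 family. All 15 listed had a region in all 3 experiments, against 28.8% of protein-coding genes, with a median of 2 and a maximum of 5. The list was chosen with earlier results of these data known and holds signalling genes only, so the sets are unlike. Fcer1g, which encodes the adaptor chain of the activating NK1.1 receptor, had 1 at its promoter (chromosome 1, 171234117 to 171234473), with pileups of 23, 23 and 47 fragments and a fold of 8.48 ± 2.66 (SD, n = 3). Ptpn6 encodes SHP-1, the phosphatase recruited by the inhibitory receptor, and had 2, the leading one with pileups of 15, 20 and 42 fragments and a fold of 6.18 ± 1.48. By mean percentile the highest 4 of the 15 were the kinase genes Lck (98.6) and Fyn (96.8), with the adaptor genes Tyrobp (97.8) and Fcer1g (94.2).

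**Figure D4:**
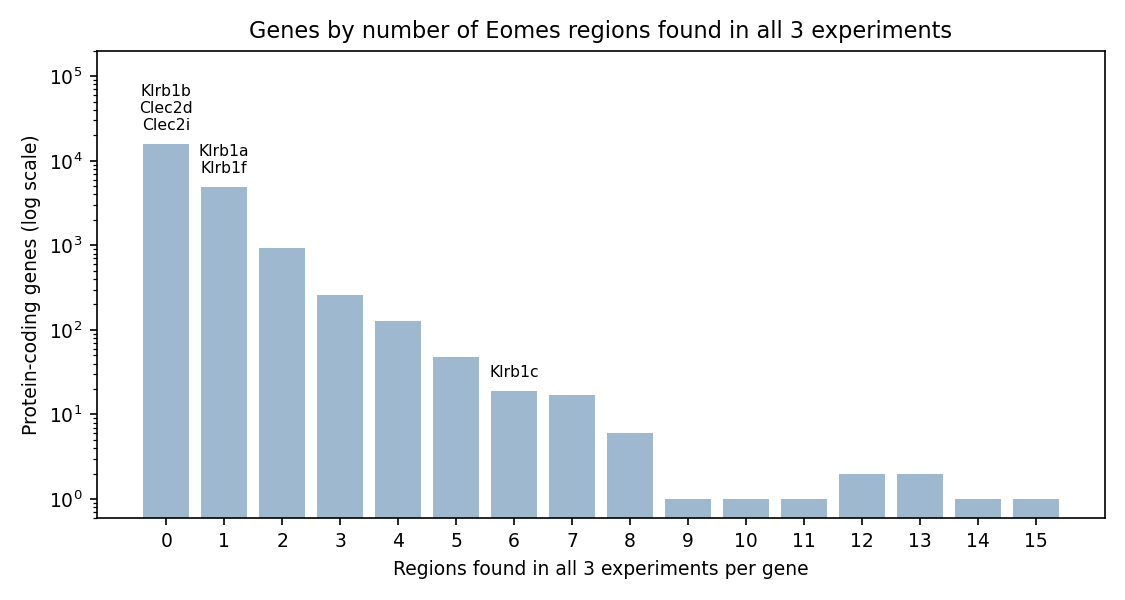
Number of protein-coding genes (log scale) by how many regions found in all 3 experiments each was assigned, with the members named above their bars. Klrb1c stands at 6 regions, Klrb1a and Klrb1f at 1, and Klrb1b, Clec2d and Clec2i at 0.

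Klrb1c shared its count of 6 with 18 other genes. The 5 whose leading region was nearest in rank were Lef1, Gna11, Nav2, Il21r and Stk32c, with mean absolute differences of 0.564, 0.814, 0.867, 0.935 and 0.985 percentile points over the 3 experiments. Lef1 encodes a relative of the transcription factor TCF-1, and Il21r the receptor for IL-21. Their leading folds were 9.70 ± 1.21 and 12.2 ± 3.94 (SD, n = 3 each), and in all 5 genes the leading region lay outside the promoter class.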

How the data were processed

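Each of the 3 experiments had 1 deposited peak list, made by setting its IP against its input, per the labels. Reads were aligned to mm10 with Novoalign and peaks annotated with ChIPseeker, per the submitters' processing notes. No peak caller is named in the sources used here. The authors' pileup was taken as a signal, their fold enrichment as a ratio, and their -log10 p-value and -log10 q-value as scores of each peak. Nothing else about normalization is given.

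Of rows repeating an interval, the one with the best -log10 q-value was kept, and intervals sharing at least 1 bp were merged (Python 3.11.15, pandas 2.3.3). Bedtools 2.31.1 gave the same 20126 reproducible regions. The peak with the highest percentile gave a region its annotation. If 1 list gave several peaks to a region, the highest-ranked gave its values. Summit distances use the median summit. Merging was tested on simulated intervals. Promoters were aligned with Biopython 1.88. Coordinates are those of the lists, whose length column exceeds the printed interval by 1 bp, so starts may be off by 1 bp. Genes were matched by symbol or unique synonym on the same chromosome to the RefSeq gene table of GRCm38.p6, on which mm10 is based.

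All 6 members are described, further family, complex and partner genes by counts, and the 5 genes most like the member with the most regions by the rank of the leading region. Members and lists were chosen with earlier results of these data known. No enrichment was tested. Differences between members are given over the 3 experiments as a description. The exact sign-flip permutation test planned for them is not reported, because members were ordered by the value compared.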

Additional observations from a re-analysis of the deposited data

How the results depend on the processing

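No paired analysis was possible because the lists contain no values of the input libraries, which had entered the peak calls. Without experiment 1, 2 or 3 in turn, the members with a reproducible region numbered 3 to 5, since Klrb1b and Clec2i rested on experiments 1 and 3. Reproducible regions then numbered 8 to 10 and promoter regions 2 to 3. The difference between Klrb1c and Klrb1f ran from 4.26 to 10.9 percentile points and that between Klrb1f and Klrb1a from -1.65 to 9.51, reversed without experiment 3. With peaks of a -log10 q-value of at least 5, the members' reproducible share rose to 90.9%, and with a reciprocal overlap of 50% it fell to 58.8%. Shares over all regions at these settings are not given here, so neither value can be set against the 23.8%. With promoters limited to 1000 bp, 1 promoter region was left. With a reciprocal overlap of 50% or with the stricter q-value, 7 regions were in all 3 lists, against 8. Counting summits singly, an alternative chosen after seeing the data, gave 9. The search for motifs around summits was not run, because no genome of this build was used here, and promoter windows took its place after the data were seen. Depth per library is unknown, and a missing peak does not show that Eomes was absent. Why a peak was missing from a list was not tested.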
